A study of Mus musculus with 6 samples.

Results

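The 8 genes described here, *Tcf7l2*, *Lef1*, *Prkcd*, *Gbx2*, *Slc17a6*, *Ramp3*, *Synpo2* and *Rora*, are known for their expression in neurons of the thalamus and neighbouring diencephalon, and were chosen by gene symbol. They were read by 11 of the 24048 probes on the array (8 of 14776 gene symbols). Their transcripts were read in the brains of male mice of the BALB/c strain, 12 weeks old and all on a normal diet. The OPP group (n = 3) drank oil palm phenolics, a water-soluble phenolic extract of the oil palm, at 1500 ppm gallic acid equivalent for 6 weeks, and the control group (n = 3) drank distilled water. All of the mice swam in a water maze and ran on a rotarod during the feeding. RNA of each brain was read on 1 Illumina MouseRef-8 array, where the intensity of a probe is how brightly the beads that carry it glow once its transcript has bound. The methods state that brains were excised, without saying how much of each was extracted, and that outlier arrays had been removed by clustering, so the spread between brains given here is what was left after that step. By the methods, mice were put into cages at random, with as many in a cage as in a group, but the cage mates are not named. If each group had its own cage, cage and treatment cannot be told apart.

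The thalamus relays sensory and motor signals to the cerebral cortex through excitatory neurons that release glutamate. Most of these neurons load glutamate into vesicles with VGLUT2, the product of *Slc17a6*, whereas cortical neurons mostly use VGLUT1, the product of *Slc17a7*. *Tcf7l2* and *Lef1* encode transcription factors of the Wnt pathway, in which beta-catenin that escapes a degrading complex joins a TCF/LEF factor on DNA. *Tcf7l2* stays on in thalamic and habenular neurons of the adult, and *Gbx2* encodes a homeobox factor needed for the thalamus to form. The nuclear receptor gene *Rora* is used in thalamic neurons and also in Purkinje cells of the cerebellum. In bulk tissue, fewer cells of a type and less RNA per cell cannot be told apart.

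The sequence before the transcription start is shown for 3 of the genes: *Slc17a6*, which had the widest spread between brains of a group among the 6 genes tested, and *Tcf7l2* and *Gbx2*, which ranked the 6 brains identically. Each is the 250 bases upstream of a RefSeq start in build GRCm38.p6, written 5′ to 3′ on the gene's strand. Capitals mark GC boxes (GGGCGG, either strand, overlapping matches counted separately), TATA boxes (TATAAA, either strand) and CCAAT boxes (CCAAT, either strand). The *Tcf7l2* window lies at chr19:55741560-55741809 on the plus strand, the *Slc17a6* window at chr7:51621580-51621829 on the plus strand and the *Gbx2* window at chr1:89931177-89931426 on the minus strand.
Tcf7l2: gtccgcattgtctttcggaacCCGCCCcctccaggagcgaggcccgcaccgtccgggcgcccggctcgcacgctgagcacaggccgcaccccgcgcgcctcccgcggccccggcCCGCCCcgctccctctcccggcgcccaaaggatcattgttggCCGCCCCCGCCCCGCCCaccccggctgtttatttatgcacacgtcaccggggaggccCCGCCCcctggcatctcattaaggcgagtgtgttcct
Slc17a6: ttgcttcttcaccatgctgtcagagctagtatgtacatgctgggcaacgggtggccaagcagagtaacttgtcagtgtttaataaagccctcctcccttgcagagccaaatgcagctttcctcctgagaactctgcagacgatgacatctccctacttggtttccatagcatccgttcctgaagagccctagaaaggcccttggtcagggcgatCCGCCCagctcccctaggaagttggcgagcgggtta
Gbx2: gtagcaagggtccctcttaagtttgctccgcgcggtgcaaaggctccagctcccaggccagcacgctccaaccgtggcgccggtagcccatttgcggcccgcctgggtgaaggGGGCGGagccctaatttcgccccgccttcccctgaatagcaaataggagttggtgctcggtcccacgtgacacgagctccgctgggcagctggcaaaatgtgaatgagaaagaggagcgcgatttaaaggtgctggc
The *Tcf7l2* window held 6 GC boxes and was 72.8% G or C. The *Slc17a6* window held 1 GC box at 53.2% G or C, and the *Gbx2* window held 1 at 61.6%. None of the 3 held a TATA or CCAAT box. *Tcf7l2* and *Slc17a6* each had another window, at a different RefSeq start, that is not shown. That of *Tcf7l2* held 0 GC boxes and 1 TATA box at 40.8% G or C. That of *Slc17a6* held none of the marked elements at 41.2%. Among all 32851 mouse windows, 32.7% held a GC box, 12.4% a TATA box and 33.8% a CCAAT box, against 9, 4 and 1 of the 14 windows of the 8 genes. The TCF/LEF motifs CTTTGAA and CTTTGAT (either strand) were searched for in windows that run 50 bases further, past the start. They were in 0 of the 14 windows, and 8.65% of all windows held at least 1 of them, which says only that these letters are not in these windows.

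Intensities below are scaled between arrays and still include background, of which the authors' own values had 174 to 209 units removed per array. A probe was tested where its mean detection level was above 0.99 in at least 1 group, which 7611 probes of 5809 named genes were. Of the 8 genes, 6 passed this filter with 1 probe each, all above background on 6 of 6 arrays, while *Lef1* and *Synpo2* did not. Among the controls, replicate 2 was the least like the others, with correlations of 0.961 and 0.962 to them against 0.987 between them. Genes of blood cells averaged 12.77 on the log2 scale in that brain, against 9.24 to 10.35 in the other 5 brains.

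For 5 of the 6 tested genes, all but *Ramp3*, levels differed widely between mice drinking the same fluid, and none of the 6 differed between OPP and control mice beyond that spread. At an adjusted p under 0.05 from limma, 0 of the 6 tested genes were called, against 1 of 7611 probes over the array (0.0131%). The adjusted p of the 6 ran between 0.985 and 1.0. At an unadjusted p under 0.05 the count was also 0 of 6, against 4.01% of probes. The OPP and control ranges overlapped for each of the 6, while 9.57% of tested probes had groups that did not overlap (4.24% higher and 5.32% lower in OPP). The fold change was above 0 for 2 of the genes and below 0 for 4, against 51.1% of all tested probes below 0, with a median log2 fold change (OPP over control) of -0.14, against 0.0 over all tested probes.

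**Figure D1:**
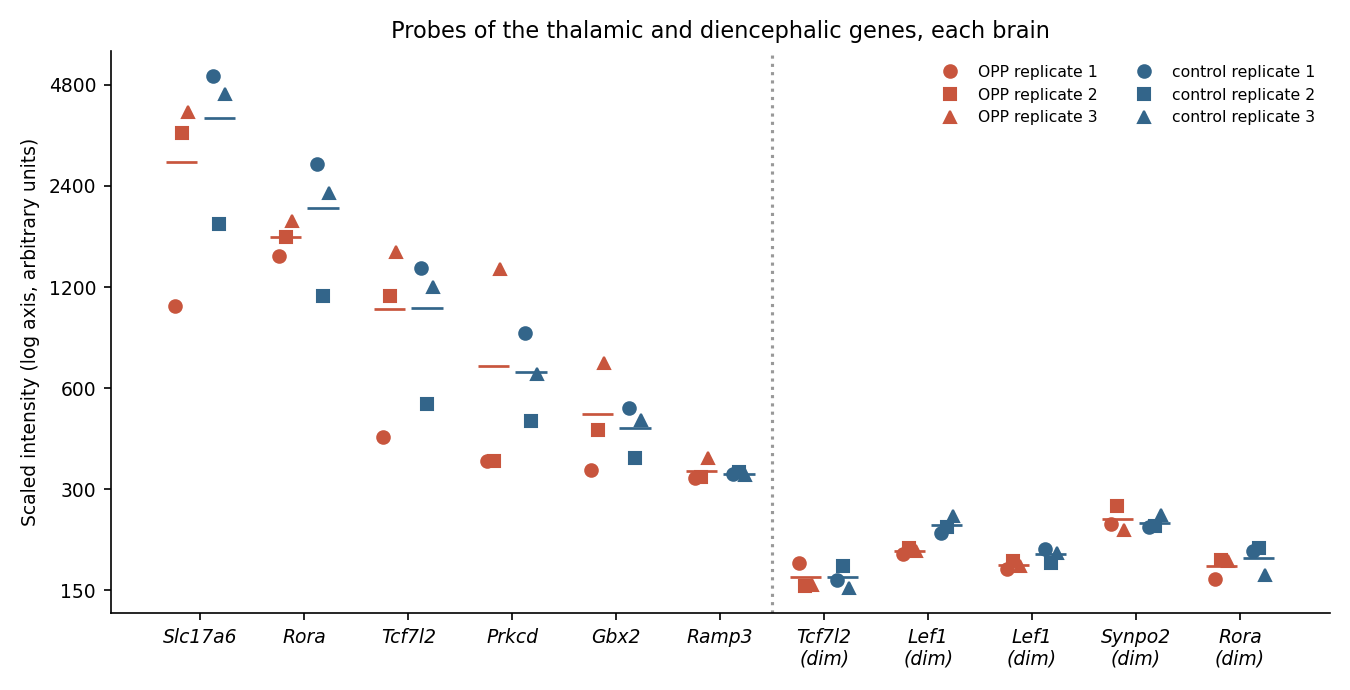
Scaled intensity (log axis) of the 6 tested genes and, marked dim, the 5 untested probes in each OPP and control brain, 1 point a brain. The 2 groups overlap in each tested gene, and *Slc17a6* spans 1051 to 5083. They do not overlap for the brighter *Lef1* probe, which is at background.

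*Slc17a6* had intensities of 1051, 3445 and 3967 in the OPP brains, against 5083, 1850 and 4505 in the control brains. OPP replicate 1 and control replicate 2 were low, the other 4 brains lay close together above them, and the groups overlapped. The means were 2821 ± 1560 in OPP mice and 3812 ± 1720 in control mice (SD, n = 3 each). The log2 fold change was -0.52 (SE 0.51, 95% interval -1.68 to 0.64, adjusted p = 0.985 from limma). Its direction turned on 1 brain: without OPP replicate 1 the log2 fold change was 0.08, and without control replicate 2 it was -0.98 (adjusted p = 0.47).

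*Tcf7l2* had intensities of 428, 1132 and 1529 in the OPP brains, against 1367, 540 and 1202 in the control brains. The same 2 brains were low as for *Slc17a6*, 1 in each group. The group means nearly coincided, at 1030 ± 558 in OPP mice and 1036 ± 438 in control mice (SD, n = 3 each), while the brightest brain of a group was 3.58 times the dimmest among OPP mice and 2.53 times among control mice. The log2 fold change was -0.09 (SE 0.47, 95% interval -1.15 to 0.98), so a change of about 1 log2 unit either way lay within the interval. It was 0.45 without OPP replicate 1. On the authors' background-subtracted values the ratio of the means, OPP over control, was 1.01. The second *Tcf7l2* probe was above background on 0 of 6 arrays.

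*Gbx2* had intensities of 343, 452 and 711 in the OPP brains, against 522, 371 and 481 in the control brains. The lowest brain of each group was again OPP replicate 1 and control replicate 2. The means were 502 ± 189 in OPP mice and 458 ± 78.3 in control mice (SD, n = 3 each), with a log2 fold change of 0.08 (SE 0.24, 95% interval -0.47 to 0.63). Without OPP replicate 3, the brightest, it was -0.20.

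*Prkcd*, which encodes protein kinase C delta, had intensities of 364, 364 and 1362 in the OPP brains, against 876, 479 and 661 in the control brains. A single OPP brain, replicate 3, lay above all controls and the other OPP brains lay below all controls. The means were 697 ± 576 in OPP mice and 672 ± 198 in control mice (SD, n = 3 each). The log2 fold change was -0.21 (SE 0.46, 95% interval -1.25 to 0.84). Without OPP replicate 3 it was -0.84, which passed unadjusted but had an adjusted p of 1.0 from limma.

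*Rora* had intensities of 1489, 1695 and 1891 in the OPP brains, against 2778, 1127 and 2278 in the control brains. The OPP brains lay between the lowest and the middle control, so the spread was mainly among controls. The means were 1691 ± 201 in OPP mice and 2061 ± 847 in control mice (SD, n = 3 each), with a log2 fold change of -0.19 (SE 0.28, 95% interval -0.84 to 0.45). Without control replicate 2 it was -0.58, which passed unadjusted and had an adjusted p of 0.146 from limma. Of the cerebellar markers, 3 of 9 on the array were tested (*Cbln1*, *Neurod1* and *Zic1*), and their mean log2 intensity was 10.02, 9.96 and 9.58 in the OPP brains against 10.99, 9.14 and 10.59 in the control brains. Among controls the brains kept 1 order for *Rora* and these markers, whereas among OPP mice the brain highest in *Rora* had the lowest marker mean. Among the 3 tested markers that low mean came mainly from *Cbln1*, at 2436, 2617 and 1141 in the OPP brains. *Neurod1* read 359, 325 and 324 there, and *Zic1* read 1288, 1157 and 1222. Of the untested markers, *Pcp2* and *En2* were above background in 2 of 3 brains of each group and are named after their values were seen. *Pcp2* read 809, 880 and 222 in the OPP brains and 2594, 212 and 1504 in the control brains. *En2* read 694, 731 and 256 in the OPP brains and 1814, 244 and 1292 in the control brains. The other untested markers were above background on 0 of 6 arrays. The part of cerebellar tissue in the *Rora* values was not tested. The second *Rora* probe was above background on 0 of 6 arrays.

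*Ramp3*, which encodes a protein that alters the ligand choice of calcitonin-family receptors, had intensities of 324, 327 and 372 in the OPP brains, against 334, 338 and 332 in the control brains. It was the steadiest and, by its group means, the dimmest of the 6, and only OPP replicate 3 stood above the rest. The means were 341 ± 27.0 in OPP mice and 334 ± 3.04 in control mice (SD, n = 3 each), with a log2 fold change of 0.03 (SE 0.10, 95% interval -0.20 to 0.25).

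*Lef1*, the second TCF/LEF gene of the set, was not above background on any of the 6 arrays with either of its probes. The brighter probe read 192, 201 and 196 in the OPP brains and 223, 232 and 250 in the control brains. These groups did not overlap, but both were at background, so no fold change is given, and 9.3% of the 16437 untested dim probes did not overlap either, 4.37% with all OPP brains lower. The other probe read 174, 183 and 178 in the OPP brains and 199, 181 and 194 in the control brains, which overlap. *Synpo2*, which encodes an actin-binding protein of the synaptopodin family, was also not above background on any array, with 237, 268 and 227 in the OPP brains and 232, 234 and 251 in the control brains.

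**Figure D2:**
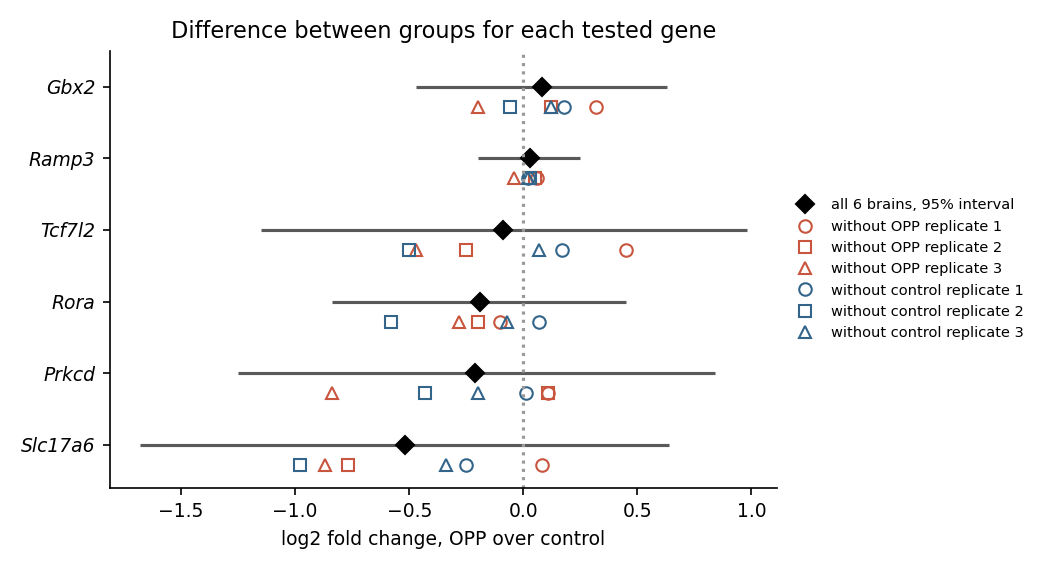
Log2 fold change (OPP over control) of the 6 tested genes on the horizontal axis, with the 95% interval from all 6 brains and the values found with 1 brain left out. Each interval includes 0, and *Slc17a6* reaches from -1.68 to 0.64.

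Variation between brains of the same group was large in 5 of the 6 genes. The SD within groups, pooled over both, was 0.93 on the log2 scale for *Slc17a6*, 0.85 for *Tcf7l2*, 0.84 for *Prkcd*, 0.50 for *Rora*, 0.42 for *Gbx2* and 0.08 for *Ramp3*, against a median of 0.14 over all tested probes. Of the 6 genes, 5 lay above the 95th percentile of this SD, as did 5.01% of all tested probes. *Ramp3*, the dimmest of the 6, lay at percentile 12.5. Its percentile was 12.0 with quantile normalization, 29.6 with neqc, 34.1 on the authors' values and 44.1 without scaling. Background included in the intensities narrows the log2 spread of dim probes. The count of genes above the 95th percentile was 4 on the authors' values and 4 without OPP replicate 1, without OPP replicate 3 or without control replicate 2. Without control replicate 2 *Rora* dropped to percentile 78.2. This comparison was chosen after the values had been seen.

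**Figure D3:**
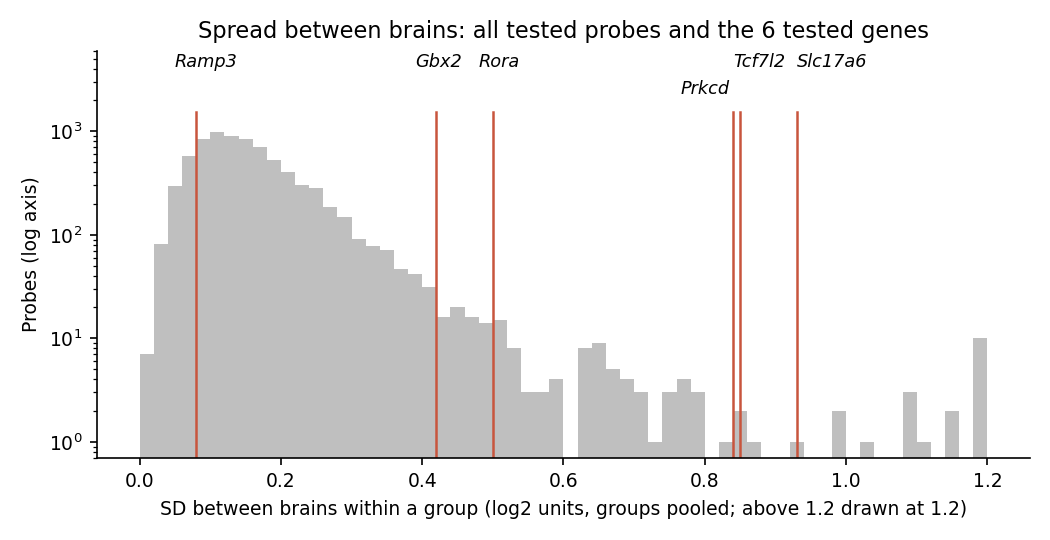
Number of tested probes (log axis) by the SD between brains of a group in log2 units, with the 6 tested genes as lines. *Tcf7l2*, *Slc17a6* and *Prkcd* lie at 0.84 to 0.93, in the far right tail, and *Ramp3* lies at 0.08.

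The same brains were low or high in several of the genes. OPP replicate 1 was the lowest OPP brain and control replicate 2 the lowest control in 4 of the 6 genes (*Tcf7l2*, *Gbx2*, *Slc17a6* and *Rora*). OPP replicate 3 and control replicate 1 were each the highest of their group in 5 of the 6, and 4 of the 6 showed both. OPP replicate 1 and control replicate 2 were also the lowest of their groups in 20.4% of all tested probes. OPP replicate 3 and control replicate 1 were the highest in 17.3%, and 8.11% showed both. These brains were picked out from the values of the 6 genes, so a larger share among these genes was built in. The counts are a description. The mean of the 6 genes on the log2 scale was 9.10, 9.72 and 10.31 in the OPP brains and 10.23, 9.32 and 10.03 in the control brains. Across the 6 brains, 15 pairs of genes were compared with exact permutation tests. *Tcf7l2* and *Gbx2* ranked the brains identically (Spearman's rho = 1.0, exact permutation p = 0.00278, the smallest 6 brains can give, adjusted p = 0.0417; Pearson's r = 0.90, exact permutation p = 0.00694, adjusted p = 0.0694), with r = 0.94 without the 2 brains farthest from the median. *Tcf7l2* and *Slc17a6* had r = 0.96 (exact permutation p = 0.0111, adjusted p = 0.0694) and rho = 0.83 (exact permutation p = 0.0583, adjusted p = 0.146). Without the 2 farthest brains r was 0.33, so that relation rests on those brains. *Ramp3* and *Rora* were the least alike, with r = 0.07 and rho = 0.14. The ranks of *Tcf7l2* and *Gbx2* were also identical without scaling, with quantile normalization, with neqc and on the authors' values. How many other pairs of genes rank the brains identically was not counted. The permutation test takes every order of the brains as equally likely, whereas many probes on the array shared the lowest and highest brains given above. Its p-value therefore does not set this pair apart from other genes.

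**Figure D4:**
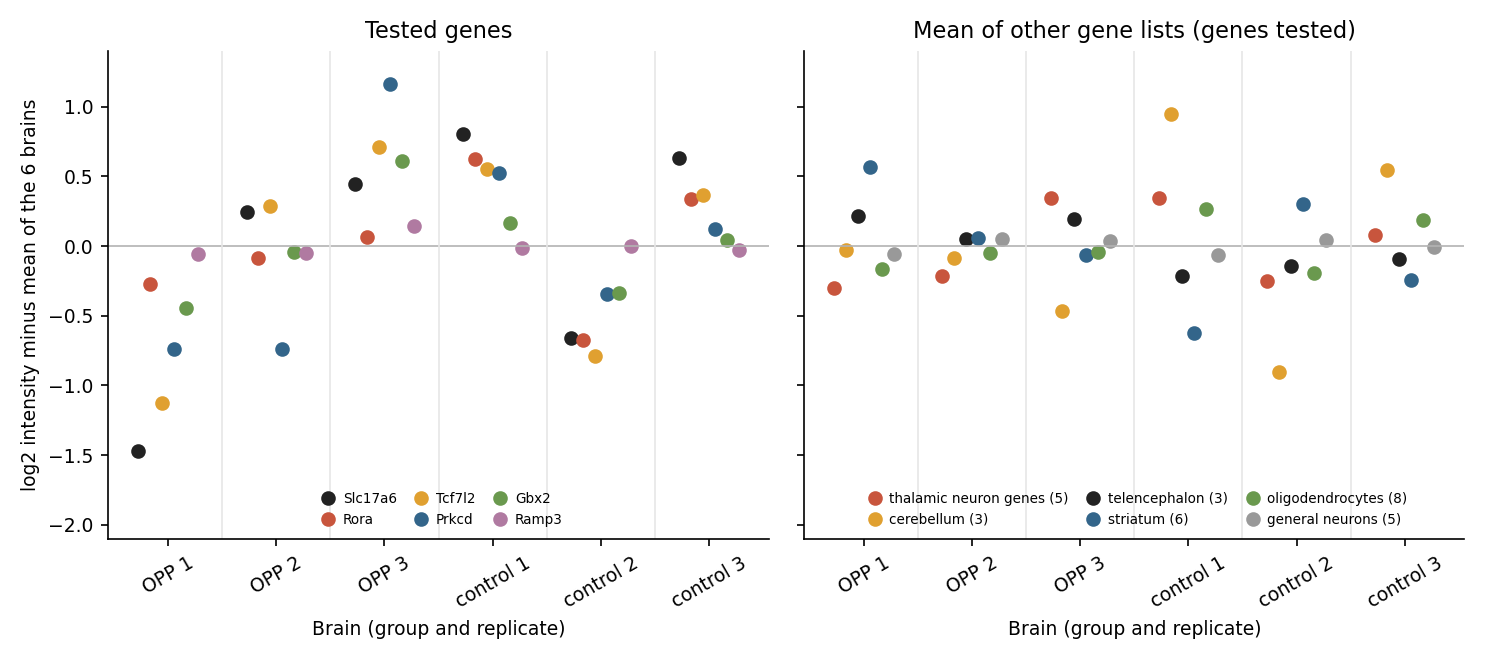
Log2 intensity minus the mean of the 6 brains (vertical axis) for each OPP and control brain, for the 6 tested genes (left) and the means of other gene lists (right, with the number of genes tested). *Slc17a6* and *Tcf7l2* lie lowest in OPP replicate 1 and control replicate 2, while the mean of general neuron genes stays within 11.77 to 11.89 before centring.

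Markers of other regions and cells were set beside the mean of the 6 genes. General neuron genes (5 of 7 on the array tested) averaged 11.78, 11.89 and 11.87 in the OPP brains and 11.77, 11.88 and 11.83 in the control brains, a far narrower range. Single genes behind this mean varied more and in opposite directions. Control replicates 1 and 2 read 3479 and 2182 for *Stmn2*, against 2691 and 4015 for *Uchl1*. Striatal genes (6 of 6 tested) averaged 10.14, 9.63 and 9.51 in the OPP brains and 8.95, 9.87 and 9.33 in the control brains, and tended to be high where the thalamic genes were low. Their relation had r = -0.88 (exact permutation p = 0.0194, adjusted p = 0.214 over 11 lists) and rho = -0.83 (exact permutation p = 0.0583, adjusted p = 0.565), with r = -0.52 without the 2 farthest brains. Oligodendrocyte genes (8 of 9 tested), whose lineage also uses *Tcf7l2*, averaged 10.79, 10.90 and 10.91 in the OPP brains and 11.22, 10.76 and 11.14 in the control brains. Their r was 0.75 (exact permutation p = 0.101, adjusted p = 0.516) and their rho 0.77 (exact permutation p = 0.103, adjusted p = 0.565), with r = 0.33 without the 2 farthest brains. None of the 11 lists passed after adjustment. The part of the regions in each extract in these values was not tested.

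Other genes of thalamic neurons numbered 14 on the array, and 5 were tested. Unadjusted, 0 were higher and 1 was lower in OPP (1.68% and 2.33% of all probes), with 0 after adjustment and a median log2 fold change of -0.10. *Calb2*, which encodes the calcium-binding protein calretinin, had intensities of 1192, 1121 and 1084 in the OPP brains, against 1773, 1452 and 1386 in the control brains. The groups did not overlap, with a log2 fold change of -0.43 (SE 0.12, adjusted p = 0.985 from limma), and *Calb2* is also used by neurons of many other regions. The second tested *Calb2* probe was at -0.38 (SE 0.13, adjusted p = 0.985 from limma). *Ntng1*, which encodes the axon guidance protein netrin-G1, had 544, 764 and 1490 in the OPP brains and 1043, 759 and 967 in the control brains, with OPP replicate 3 again highest (log2 fold change -0.10, SE 0.31). *Shox2*, a homeobox gene of the thalamus, was untested and is named after its values were seen: it read 234, 327 and 511 in the OPP brains and 462, 222 and 427 in the control brains, above background in 2 of 3 brains of each group. Its low brains were those of *Tcf7l2*. The same brains were low in *Slc6a3*, an untested marker of hindbrain and midbrain that is also named after its values were seen. *Slc6a3* read 162, 656 and 519 in the OPP brains and 533, 217 and 427 in the control brains. It was also above background in 2 of 3 brains of each group.

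Genes that work with the members showed small differences. Of Wnt receptors and transducers 2 of 14 on the array were tested and of the complex that degrades beta-catenin 2 of 6, with 0 called in either and median log2 fold changes of 0.01 and -0.03. In the first, *Dvl1*, which encodes a Dishevelled protein that relays the signal, had a log2 fold change of 0.10 (SE 0.12) and the co-receptor gene *Lrp5* one of -0.09 (SE 0.13). In the second, the kinase genes *Csnk1e* and *Gsk3b* had -0.08 (SE 0.13) and 0.03 (SE 0.11). Of the partners of TCF/LEF factors 8 of 11 were tested, with a median of 0.04 and 1 higher unadjusted. That gene was *Nlk*, which encodes a kinase that phosphorylates TCF/LEF factors, at 1400, 1215 and 1605 in the OPP brains and 1072, 1042 and 1167 in the control brains (log2 fold change 0.36, SE 0.12, adjusted p = 0.985 from limma). Its second tested probe went the other way, at -0.09 (SE 0.16). *Ctnnb1*, which encodes beta-catenin itself, had 1093, 998 and 1622 in the OPP brains and 1229, 887 and 1060 in the control brains (0.20, SE 0.19). Of the Wnt target genes 3 of 11 were tested, with a median of 0.02 and 0 called. By the brightest probe of a gene, the largest differences there were small. *Nkd2*, an inhibitor of Dishevelled, was at -0.03 (SE 0.10) and the cyclin gene *Ccnd1* at 0.03 (SE 0.14). A dimmer tested *Ccnd1* probe was at 0.25 (SE 0.11, adjusted p = 0.985 from limma). It read 309, 333 and 292 in the OPP brains and 273, 283 and 230 in the control brains. The general target *Axin2* was not among those tested.

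Among paralogs and partner subunits 7 of 16 were tested, with a median log2 fold change of 0.12, 1 higher unadjusted and 0 after adjustment. It was *Prkcb*, which encodes protein kinase C beta, with 9375, 8149 and 8959 in the OPP brains, against 5700, 7988 and 7347 in the control brains. The groups did not overlap, and the log2 fold change was 0.34 (SE 0.14, adjusted p = 0.985 from limma). On the second tested *Prkcb* probe, at 0.27 (SE 0.15), the groups overlapped. *Slc17a7* had 1672, 1416 and 1249 in the OPP brains and 793, 1991 and 987 in the control brains, highest in control replicate 2, where *Slc17a6* was lowest among controls. Its log2 fold change was 0.31 (SE 0.29).

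Over the 6 brains, the 5 of 5803 compared genes most like the mean of the 6 were *Slc39a1* (r = 0.997), which encodes a zinc transporter, *Atf5* (r = 0.995), which encodes a transcription factor, *Chrna4* (r = 0.995), which encodes a nicotinic acetylcholine receptor subunit, *Tmem130* (r = 0.991) and *Rpl17* (r = 0.987), a ribosomal protein gene. *Chrna4* had 327, 535 and 836 in the OPP brains and 720, 386 and 697 in the control brains, a range of 1.35 log2 units, whereas *Atf5* ranged over 0.25. Those most like *Tcf7l2* were *Lrp11* and *Mrvi1* (r = 0.992 each), *Cops4* (r = 0.981), *Emb* (r = 0.98) and *Acbd3* (r = 0.977). *Emb*, which encodes the cell adhesion protein embigin, had 623, 1065 and 1205 in the OPP brains and 1295, 783 and 1181 in the control brains. *Ntng1*, *Ctnnb1* and *Slc17a7* above were, like *Shox2*, named after their values had been seen. The genes of this paragraph are the extremes of many comparisons over 6 brains and are given as a description.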

How the data were processed

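By the methods, the total RNA samples of highest integrity in each group were chosen, amplified and hybridized to Illumina MouseRef-8 Version 1 arrays. After outliers were removed, 3 brains of mice given OPP and 3 of control mice were kept. The authors deposited, per probe, a mean bead intensity with background included and a detection p-value from BeadStudio (1.5.1.3 in the submitters' processing notes), and a second table of background-subtracted, rank-invariant-scaled intensity. A line per array linked the tables, with factors of 0.888 to 1.087. A genome build was not given in the sources used here. Genes were named through GEO's platform annotation (19398 probes with 1 symbol, 4650 with none, 0 with several).

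Intensities were scaled on 4613 rank-invariant probes (rank shift within 5%, percentiles 50 to 90), given a floor of 10 and log2-transformed. Median intensity was 218 to 244.8 in the OPP arrays and 205.4 to 226.1 in the control arrays. The 7611 probes with a mean detection level above 0.99 in at least 1 group were fitted with limma 3.58.1 in R 4.3.3, with Benjamini-Hochberg adjustment over all of them. limma replaced the Illumina Custom error model of the methods, and the script was tested on simulated data. The brightest tested probe stood for a gene in the lists. With 3 brains per group, an exact permutation test of 1 value cannot give a p under 0.1, and the number of arrays limits the precision. The labels do not tie replicates to anything beyond separate brains, so p-values measure the spread between these samples.

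The 8 genes and the lists were chosen with earlier results of these data known. Named were all 8 genes, in each related list the genes at an unadjusted p under 0.05 or otherwise at most the 2 of largest fold change, and the 5 genes most like the mean of the tested genes and most like *Tcf7l2*. Alternatives were no scaling, quantile normalization, neqc, the authors' values, other filters, array weights, the replicate number as a block, the mean of a gene's probes and leaving out each brain. Promoter sequences are from RefSeq (GRCm38.p6), and the 8 genes all matched.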

Additional observations from a re-analysis of the deposited data

How the results depend on the processing

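Under the 14 alternatives run for calls, 0 of the 6 tested genes passed an adjusted p under 0.05 from limma, and the lowest adjusted p was 0.146 (*Rora*, without control replicate 2). Unadjusted, 0 genes passed, 1 did with array weights (*Rora*, log2 fold change -0.43), and 0 to 2 did with 1 brain left out: *Prkcd* without OPP replicate 3, and *Slc17a6* and *Rora* without control replicate 2. Leaving out 1 brain gave log2 fold changes of -0.50 to 0.45 for *Tcf7l2*, -0.84 to 0.11 for *Prkcd*, -0.20 to 0.32 for *Gbx2*, -0.98 to 0.08 for *Slc17a6*, -0.04 to 0.06 for *Ramp3* and -0.58 to 0.07 for *Rora*, so each of the 6 changed direction in at least 1 of these settings. *Gbx2* was also at -0.06 with array weights. The median of the 6 was -0.47 to 0.10 with 1 brain left out and -0.37 to -0.08 under the other settings.

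Over all probes, 1 passed adjustment in the main setting, 2 with neqc, the authors' values, no filter on dim probes or the replicate block, 3 with array weights, 0 with only probes above background on all arrays, and 1 to 7 without 1 brain. Unadjusted, 128 were higher and 177 lower. The balance turned with the scaling: no scaling gave 147 higher and 71 lower, quantile normalization 160 and 146, and neqc 180 and 167, while the authors' values gave 165 and 179. It also turned without OPP replicate 1 (133 and 128) and without control replicate 3 (130 and 118). No filter on dim probes gave 441 higher and 512 lower, array weights 290 higher and 460 lower, and leaving out 1 brain 70 to 311 higher and 117 to 477 lower. The cause was not tested.

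Replicate numbers do not pair the brains: deviations of same-numbered OPP and control brains correlated at -0.27, 0.05 and 0.17. Some brains of different numbers were more alike, at 0.29 for OPP replicate 1 with control replicate 2 and 0.28 for OPP replicate 3 with control replicate 1. The lowest value was -0.31, for OPP replicate 3 with control replicate 2. With the replicate block 0 of the 6 genes passed and 2 probes passed adjustment. Intensities include background, which makes fold changes of dim probes smaller than on the authors' values. *Lef1* and *Synpo2* were not above background, so no difference was measurable for them.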

Other observations

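Genes of other diencephalic nuclei were also read. Of the genes of the habenula and reticular thalamus 5 of 11 on the array were tested, with a median log2 fold change (OPP over control) of 0.02 and 0 at an unadjusted p under 0.05 in limma. *Lhx1*, a LIM homeobox gene, read 312, 266 and 270 in the OPP brains and 571, 272 and 365 in the control brains (log2 fold change -0.45, SE 0.23), above background in 1 of 3 OPP brains and 2 of 3 control brains. *Isl1*, another LIM homeobox gene, read 530, 367 and 392 in the OPP brains and 360, 490 and 330 in the control brains (0.13, SE 0.18). Its high brains, OPP replicate 1 and control replicate 2, are those that were low in *Tcf7l2*. Those brains were also the highest of their groups in the mean of the striatal genes, at 10.14 and 9.87 on the log2 scale. The part of other regions in the *Lhx1* and *Isl1* values was not tested.

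Of the hypothalamic genes 5 of 12 were tested, with a median of -0.26, 1 lower unadjusted and 0 after adjustment. It was *Trh*, which encodes thyrotropin-releasing hormone, at 464, 416 and 500 in the OPP brains, against 675, 1076 and 603 in the control brains. The groups did not overlap, with a log2 fold change of -0.73 (SE 0.20, adjusted p = 0.985 from limma). The median of the list was -0.62 to -0.02 with 1 brain left out, -0.75 with neqc and -1.07 on the authors' values. It was 0.04 with only probes above background on all arrays, so its direction depended on the filter. In the main setting the median of -0.26 was the value of *Hcrt*. That gene read 214, 251 and 490 in the OPP brains and 364, 385 and 321 in the control brains. It was above background in 1 of 3 OPP brains and 3 of 3 control brains. *Avp*, at -0.60 (SE 0.43), was above background in 2 of 3 OPP brains and 3 of 3 control brains.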
